A study of Rattus norvegicus with 4 samples.

Results

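Of 26406 annotated features measured in cultured rat heart muscle cells, 76 are described here. All 76 were at least 2-fold higher after transfection of an siRNA that targets Chaer, a long noncoding RNA, than after a control siRNA. This held both without and with phenylephrine. They were chosen by measured values: a mean of at least 1 RPKM (reads corrected for gene model length and library depth) over the 4 libraries, a ratio of (RPKM + 1) of at least 2 for the Chaer siRNA in each condition, and a mean phenylephrine log2 ratio above -0.8 and below 1. They made up 0.622% of the 12226 features that passed the filter on the mean level. Because the choice used both siRNA comparisons and the mean phenylephrine ratio, their values in these comparisons are a description and carry no test.

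The cells were neonatal rat ventricular myocytes, prepared from the hearts of 2-day-old Sprague Dawley rats. Every culture received an siRNA for 6 h, either one directed at Chaer (siChaer) or a negative control (siNeg), so no library came from untransfected cells. RNA was collected after 48 h, with 50 µM phenylephrine in the groups siNeg PE and siChaer PE and without it in siNeg and siChaer. Each of the 4 groups was 1 library, so no value has an error from replicate cultures. Differences between cultures cannot be told apart from effects of the siRNA or of phenylephrine. Intervals below are 95% intervals of counting error alone, and they treat reads as independent although no molecular identifiers marked the molecules.

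An siRNA loads into the RNA-induced silencing complex and directs the cleavage of transcripts that match its guide strand. Chaer is known as a heart-enriched transcript that binds the EZH2 subunit of Polycomb repressive complex 2, the enzyme that methylates histone H3 at lysine 27 and keeps genes silent. Phenylephrine activates α1-adrenergic receptors and makes these cells grow, in a culture model of cardiac hypertrophy.

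The libraries held 33944988 to 39155363 reads in listed features. The 20 features with the most reads took 20.4% to 24.7% of them, and 0 of the 76 features were among those 20. The files list these features by Ensembl gene identifier, and the reference tables used here (assembly GRCr8) pair 0 of the 76 with a symbol. Gene roles, pathway lists, cell type markers and promoter sequences are therefore not given, the labelled cell type was not checked against its markers, and 2 of the features are printed by identifier. The others are given by rank, in the order of the mean of their 2 siRNA log2 ratios. No feature was listed under the name Chaer, so the knockdown itself was not checked.

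ENSRNOG00000007089 stood first, far ahead of the others. Its level was 9.38 RPKM (8.67 to 10.1) in siNeg, 101 RPKM (98.5 to 103) in siChaer, 7.69 RPKM (7.03 to 8.40) in siNeg PE and 81.3 RPKM (79.3 to 83.4) in siChaer PE. The siChaer libraries were thus both high, the siNeg libraries both low, and the 2 pairs did not overlap. The 2-fold rule in both conditions nearly fixes this order, so nothing is read from it. The ratio of RPKM was 10.7 (9.90 to 11.7) without and 10.6 (9.64 to 11.6) with phenylephrine, on 494 to 7401 reads per library. The next largest ratios among the 76 were 4.58 without and 5.41 with phenylephrine, and both belonged to the feature ranked 7th. With phenylephrine, ENSRNOG00000007089 was at 0.820 times (0.727 to 0.924) its untreated level with the control siRNA and at 0.807 times (0.780 to 0.835) with the Chaer siRNA.

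ENSRNOG00000019027 stood second by mean log2 ratio. Its level was 12.04 RPKM (11.1 to 13.0) in siNeg, 47.1 RPKM (45.3 to 48.9) in siChaer, 13.9 RPKM (12.9 to 14.98) in siNeg PE and 56.0 RPKM (54.1 to 58.0) in siChaer PE. Again both siChaer libraries lay above both siNeg libraries, an order that the rule nearly fixes. The ratio of RPKM was 3.91 (3.58 to 4.27) without and 4.03 (3.71 to 4.37) with phenylephrine. Unlike the leading feature it was slightly higher with phenylephrine, 1.16-fold (1.04 to 1.29) with the control and 1.19-fold (1.13 to 1.25) with the Chaer siRNA.

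Across the 76 features, the median level was 12.2 RPKM in siNeg (range 0.721 to 135.9), 33.1 RPKM in siChaer (2.97 to 281.6), 11.3 RPKM in siNeg PE (0.755 to 153.6) and 31.5 RPKM in siChaer PE (3.65 to 333.7). The lower of the siChaer libraries exceeded the higher of the siNeg libraries for 76 of 76 features, by a median of 2.36-fold and at least 1.28-fold. The same held for 19.8% of all 12226 features (2426), with no minimum on their ratios, and the 2-fold rule in both conditions nearly fixes it for the 76, so nothing is read from this count. A gap of at least 2-fold on the (RPKM + 1) scale was found for 51 of the 76 and for 0.417% of all features, which are the same 51 by the way the list was chosen. The reads of all 76 features summed to 0.364% of listed reads in siNeg and 0.918% in siChaer, and to 0.351% in siNeg PE and 0.936% in siChaer PE. The Chaer siRNA library without phenylephrine held the highest level for 43 features, and the one with phenylephrine for the other 33. Of all 12226 features, 4251 and 2022 had their highest level in these libraries. The rule fixed that a Chaer siRNA library was highest for each of the 76, so nothing is read from these counts.

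**Figure D1:**
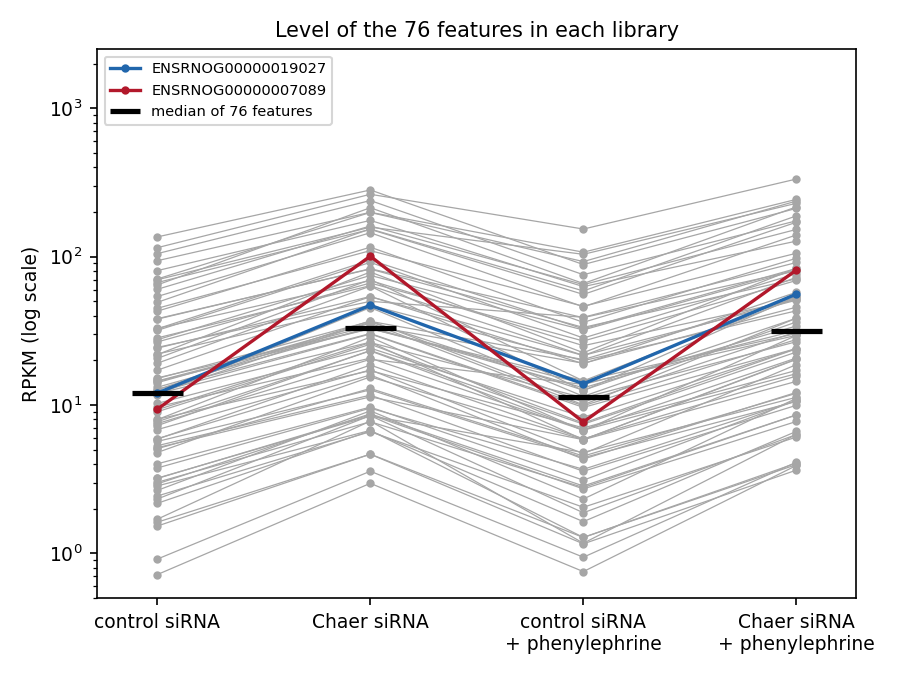
RPKM (log scale) of each of the 76 features in the 4 libraries; each line joins 1 feature's values, 2 features are coloured, and black bars mark the medians. The medians are 33.1 and 31.5 RPKM in the Chaer siRNA libraries and 12.2 and 11.3 RPKM in the control siRNA libraries, and ENSRNOG00000007089 climbs most steeply.

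The size of the ratios followed from the threshold for most of the list. The share of all 12226 features at least 2-fold higher was 1.02% without phenylephrine (125 features) and 0.998% with it (122 features), and the rule fixed that all 76 pass in both. Their median log2 ratio of (RPKM + 1) was 1.23 without phenylephrine (range 1.00 to 3.29) and 1.32 with it (1.00 to 3.24), beside medians of 0.02 and -0.03 over all 12226 features. As plain ratios of RPKM the medians were 2.65 and 2.83. A ratio of RPKM of at least 3 was reached by 22 features without and by 33 with phenylephrine. Of all 12226 features, 0.245% and 0.376% reached it. The lower bound of the counting interval was at least 2 for 71 features without and 69 with phenylephrine, beside 0.9% and 0.932% of all features. The rule used these ratios, so nothing is read from these counts.

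**Figure D2:**
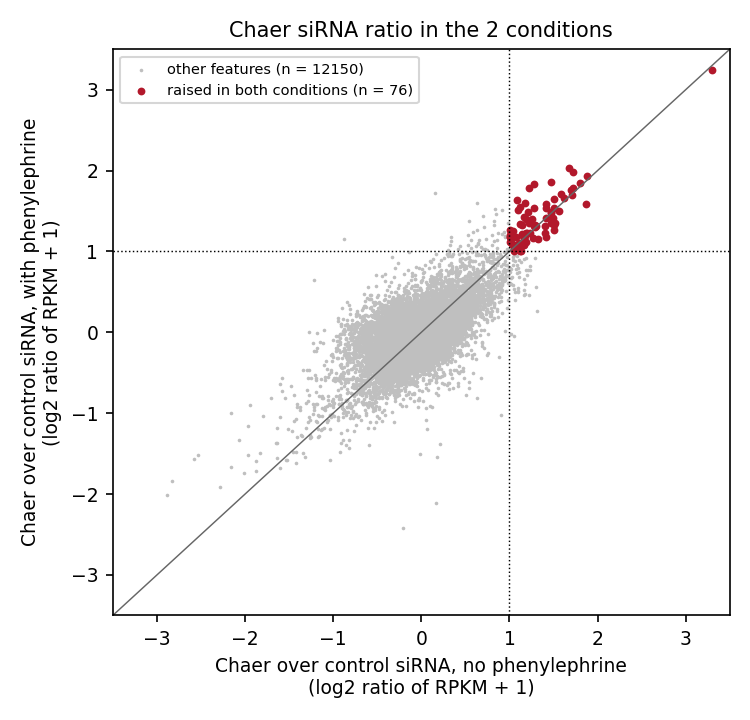
Chaer siRNA log2 ratio of (RPKM + 1) without (x axis) and with (y axis) phenylephrine, for the 76 features (red) and the other 12150 (grey); dotted lines mark 2-fold, which chose the red points, and the solid line marks equal ratios. A single red point lies apart, at 3.29 and 3.24.

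**Figure D3:**
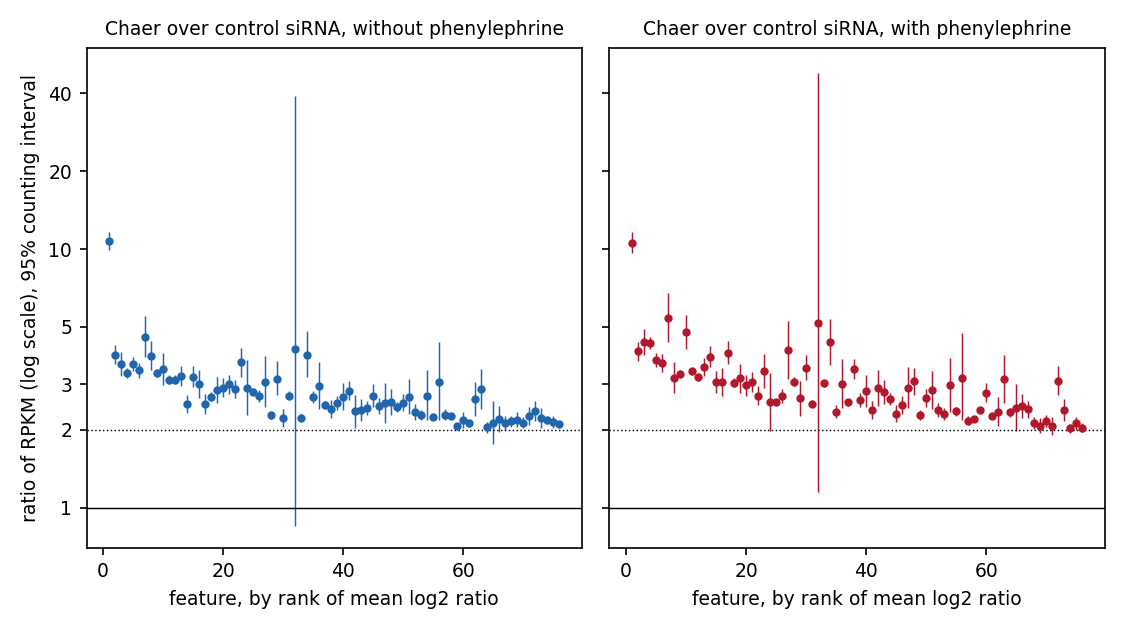
Ratio of RPKM, Chaer over control siRNA (log scale), for the 76 features by rank, with 95% counting intervals, without (blue) and with (red) phenylephrine; the solid line marks 1 and the dotted line marks 2. The leading feature is near 10.7 and 10.6, and the widest interval belongs to a feature with 2 reads in each control siRNA library.

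The features were found over a wide span of abundance, with a mean level over the 4 libraries that was on the whole above that of the others. Their mean level over the 4 libraries had a median of 23.0 RPKM (range 2.09 to 216), beside 11.2 RPKM for the other 12150 features. The filter and the ratio both use these levels, so the difference is a description. Of the 76, 21 averaged under 10 RPKM, 34 from 10 to under 50 RPKM and 21 at least 50 RPKM.

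The size of the siRNA ratio was similar in these classes without phenylephrine. The median ratio of RPKM was 2.69 for the 21 least abundant features, 2.53 for the middle 34 and 2.45 for the 21 most abundant. With phenylephrine the medians were 3.08, 2.93 and 2.39. Because of the pseudocount, a weakly expressed feature needs a larger ratio of RPKM to pass the threshold.

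The most abundant of the 76 ranked 57th by ratio. It measured 115.0 RPKM in siNeg, 263 RPKM in siChaer, 153.6 RPKM in siNeg PE and 334 RPKM in siChaer PE. Its siRNA ratios of RPKM were 2.29 (2.19 to 2.40) and 2.17 (2.08 to 2.26), and it was 1.34-fold (1.27 to 1.41) and 1.27-fold (1.23 to 1.31) higher with phenylephrine under the control and the Chaer siRNA. The next in abundance, ranked 59th, was lower with phenylephrine instead. It measured 135.9 RPKM in siNeg, 282 RPKM in siChaer, 88.6 RPKM in siNeg PE and 212 RPKM in siChaer PE. Its siRNA ratios were 2.07 (2.03 to 2.12) and 2.39 (2.33 to 2.46). The features ranked 57th and 59th thus differed in the direction of the phenylephrine ratio.

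The least abundant feature rested on very few reads. It had 2 reads in siNeg, 9 in siChaer, 2 in siNeg PE and 12 in siChaer PE, over a gene model of 75 bp. Its ratio of RPKM was 4.12 (0.853 to 39.2) without and 5.19 (1.16 to 47.7) with phenylephrine, so without phenylephrine a difference was not detectable at this depth. The only other gene model under 100 bp, ranked 24th, was 72 bp long and had 87, 276, 83 and 245 reads in siNeg, siChaer, siNeg PE and siChaer PE. In all, 6 of the 76 had under 100 reads in at least 1 library.

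Gene model length, which entered the rule only through RPKM, was similar to that of the other features. The median was 1846 bp for the 76 (quartiles 1266 and 2862 bp) and 1954 bp for the other 12150 (1238 and 3068 bp). Models under 1000 bp made up 15.8% of the 76 and 17.8% of the 12226 features, and models over 5000 bp made up 7.89% and 7.20%.

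Most of these features differed by less than 1.5-fold between the libraries with and without phenylephrine, within a range that the rule bounded. The same held for most of all 12226 features. Under the control siRNA the log2 ratio ran from -0.92 to 0.80 with a median of -0.15, and under the Chaer siRNA from -0.64 to 0.86 with a median of -0.04. The medians over all 12226 features were -0.07 and -0.10. Under the control siRNA 2 of the 76 passed 1.5-fold upwards and 3 passed it downwards on the (RPKM + 1) scale, beside 3.54% and 4.02% of all features. Under the Chaer siRNA these counts were 2 and 1, beside 4.27% and 5.91%. Nothing is read from these counts, because the rule left out features with large mean phenylephrine ratios.

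Within that range both directions were found. Under both siRNAs, 22 of the 76 (28.9%) had a phenylephrine ratio above 1 and 37 (48.7%) a ratio below 1, beside 22.2% and 44.8% of all 12226 features. The other 17 (22.4%) had ratios on opposite sides, beside 33.0% of all features. Of the 17, 11 were lower with the control and higher with the Chaer siRNA, and 6 went the other way. Those counts were 1920 and 2112 over all 12226 features. Counting intervals lay wholly above 1 under both siRNAs for 14 features (18.4%) and wholly below 1 under both for 28 (36.8%), beside 12.1% and 25.6% of all features. They lay on opposite sides of 1 for 6 (7.89%), beside 10.3%. The rule bounded the mean of both ratios, so these shares are a description. The median siRNA ratio of RPKM was 2.76 without and 2.56 with phenylephrine for the 22. It was 2.69 and 2.85 for the 37, and 2.53 and 3.03 for the 17. On the log2 scale the 2 siRNA ratios differ by the same amount as the 2 phenylephrine ratios. The split by direction thus partly sets these medians, and nothing is read from them. Across the 76 features the phenylephrine log2 ratios under the 2 siRNAs had Pearson's r = 0.82. Both siRNA ratios had to pass the threshold, so a small difference between the phenylephrine ratios is partly set by the choice. A high r is thus partly set too. It is given as a description over features that share the same 4 libraries and depths, and nothing is read from it.

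The directions depended on the scaling between libraries. As deposited, 28 of the 76 were higher and 48 lower with phenylephrine under the control siRNA, and 33 were higher and 43 lower under the Chaer siRNA. Of all 12226 features, 39.5% and 37.9% were higher. With TMM factors, which set the bulk of features equal, the splits became 33 and 43, and 44 and 32. With the 20 most abundant features left out of the scaling they became 18 and 58, and 33 and 43. Under the Chaer siRNA, TMM also moved the median of all features, from -0.10 to 0.00. Measured from the median of all features, the median of the 76 was -0.07 under the control and 0.05 under the Chaer siRNA as deposited, and -0.08 and 0.07 with TMM.

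**Figure D4:**
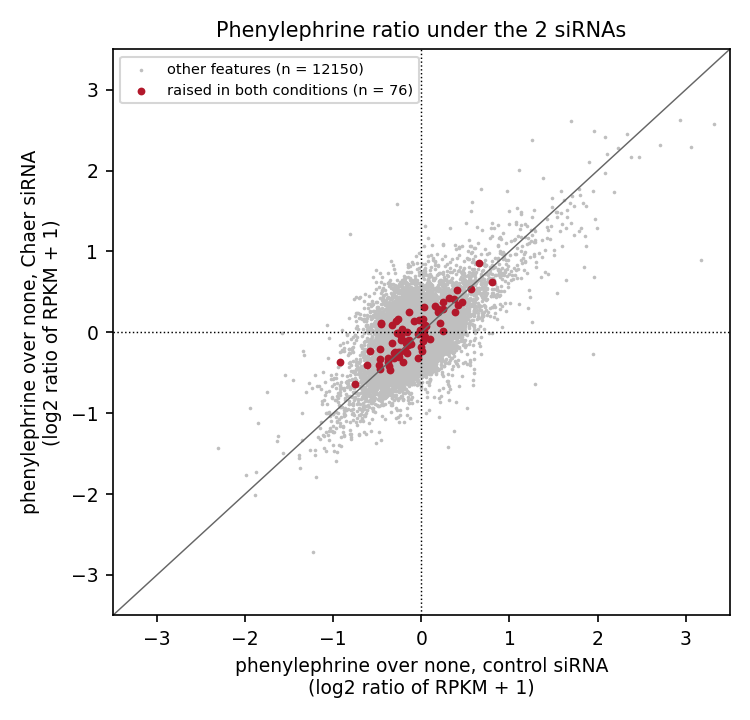
Phenylephrine log2 ratio of (RPKM + 1) under the control siRNA (x axis) and the Chaer siRNA (y axis), for the 76 features (red) and the other 12150 (grey); the solid line marks equal ratios. The red points lie between -0.92 and 0.86, partly because the rule bounded the mean of both ratios.

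The feature with the highest mean phenylephrine ratio of the 76, ranked 64th, measured 24.5 RPKM in siNeg, 50.0 RPKM in siChaer, 39.1 RPKM in siNeg PE and 91.4 RPKM in siChaer PE. Chaer siRNA and phenylephrine each went with a higher level, and the level with both was the highest of the 4. Its phenylephrine ratios were 1.597 (1.51 to 1.68) and 1.83 (1.77 to 1.89), and its siRNA ratios were 2.05 (1.95 to 2.15) and 2.34 (2.25 to 2.43). The feature with the lowest mean phenylephrine ratio, ranked 72nd, measured 2.85 RPKM in siNeg, 6.75 RPKM in siChaer, 1.28 RPKM in siNeg PE and 3.97 RPKM in siChaer PE. Here phenylephrine and the siRNA went in opposite directions, and siNeg PE was the lowest library. Its phenylephrine ratios were 0.450 (0.393 to 0.515) and 0.588 (0.546 to 0.634).

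The siRNA ratio was about as large with phenylephrine as without it for most of the 76 features. The 2 log2 ratios lay within 0.25 of each other for 62 features (81.6%) and within 0.1 for 36 (47.4%), beside 59.8% and 25.6% of all 12226. Both ratios had to pass the threshold, so a smaller gap is partly set by the choice. The ratio was larger with phenylephrine for 49 features and larger without it for 27, with a median difference of 0.04. Over all features it was larger with phenylephrine for 41.5%, with a median difference of -0.06. Counting intervals of the difference, by a normal approximation on log2 reads with 0.5 reads added, lay above 0 for 19 features (25%), below 0 for 8 (10.5%) and spanned 0 for 49 (64.5%). The shares over all features were 21.2%, 32.3% and 46.5%. The rule used both siRNA ratios, so nothing is read from these counts. The difference between the siRNA ratios is the same quantity as the difference between the phenylephrine ratios, and with 1 library per group it was not tested.

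The 3 largest differences went towards a larger ratio with phenylephrine. The feature ranked 17th measured 6.84 RPKM in siNeg, 17.3 RPKM in siChaer, 4.71 RPKM in siNeg PE and 18.7 RPKM in siChaer PE. With phenylephrine it was lower under the control siRNA and slightly higher under the Chaer siRNA, so its siRNA ratio went from 2.53 (2.31 to 2.76) to 3.98 (3.59 to 4.42). The feature ranked 14th behaved alike, at 14.2 RPKM in siNeg, 35.7 RPKM in siChaer, 10.04 RPKM in siNeg PE and 38.5 RPKM in siChaer PE. Its siRNA ratio was 2.52 (2.32 to 2.73) without and 3.84 (3.49 to 4.22) with phenylephrine. In the other direction the largest difference was that of the feature ranked 8th, from a ratio of 3.86 (3.39 to 4.41) without to 3.17 (2.77 to 3.64) with phenylephrine.

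**Figure D5:**
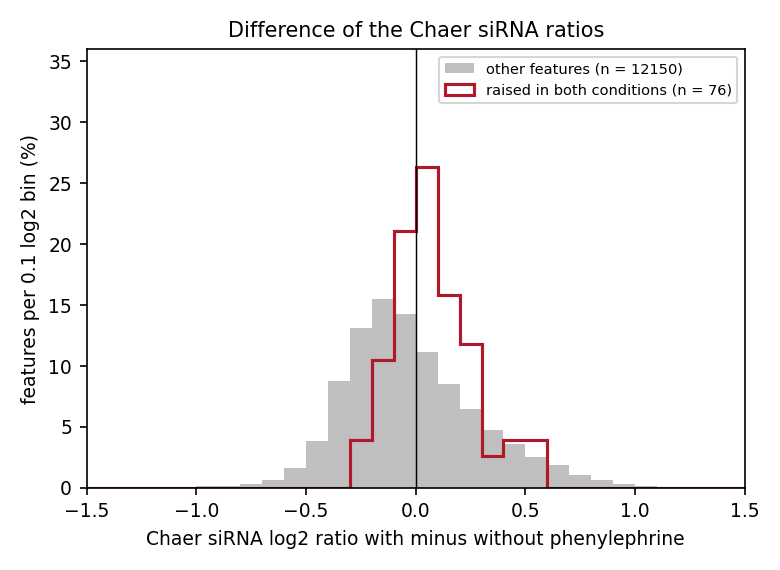
Share of features (%) in bins of 0.1 of the Chaer siRNA log2 ratio with phenylephrine minus that without, for the 76 features (red outline) and the other 12150 (grey); a few grey values beyond 1.5 in either direction are not shown. The red outline runs from -0.28 to 0.57.

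The edge of the list was not a gap in the data. The 3 features with the lowest of their smaller siRNA log2 ratios lay at 1.001, 1.002 and 1.003. The 3 nearest features outside had smaller ratios of 0.995, 0.981 and 0.970. The range set for phenylephrine left out 2 of the 78 features that passed the filter on the mean level and both siRNA thresholds. The first measured 14.1 RPKM in siNeg, 29.4 RPKM in siChaer, 5.85 RPKM in siNeg PE and 13.1 RPKM in siChaer PE, with a mean phenylephrine log2 ratio of -1.13. The second measured 14.3 RPKM in siNeg, 41.5 RPKM in siChaer, 31.6 RPKM in siNeg PE and 86.3 RPKM in siChaer PE, with a mean of 1.06.

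Features that passed the siRNA threshold in 1 condition alone were mostly also higher with the Chaer siRNA in the other, by less than the threshold. Of 47 that passed without phenylephrine alone, 45 had a ratio above 1 with phenylephrine and 32 had a ratio of (RPKM + 1) of at least 1.5, which 4.47% of all 12226 features had. A ratio above 1 with phenylephrine was found for 45.8% of all features. Of 44 that passed with phenylephrine alone, 43 had a ratio above 1 without it and 31 had a ratio of at least 1.5, which 4.94% of all features had, and 52.1% of all features were above 1 there. Their median log2 ratios in the condition where they did not pass were 0.73 and 0.70.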

How the data were processed

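RNA of 4 libraries was sequenced after a stranded TruSeq preparation, per the labels' protocols. The submitters' processing notes name TopHat2 and the build rn5; the counting tool, annotation release, strand setting and filters are not stated in those sources, so reads of overlapping features may not be told apart. The authors' deposited values are raw read counts and RPKM for each feature, per the file headers. Dividing counts by RPKM gave whole gene model lengths (within 6.38e-08 bp for features with over 1000 reads) and read totals of 35314303 to 40835172.

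The rule was applied to log2(RPKM + 1), which understates changes of weakly expressed features. The 76 features, the lists and the rule were chosen with earlier results of these data known. As planned for files without symbols, 2 identifiers are printed (the highest mean siRNA log2 ratio), and the 35 gene lists were not applied. Counts served for exact binomial intervals of ratios, exact Poisson intervals of levels and TMM factors. No count model was fitted, because each group is 1 library and the rule used these comparisons. The script was tested on simulated data. Tools were Python 3.11.15, NumPy 2.4.6, pandas 2.3.3, SciPy 1.17.1, matplotlib 3.10.9, R 4.3.3 and edgeR 4.0.16. Alternatives were pseudocounts of 0.1 and 5, other scalings, filters and a 1.5-fold rule.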

Additional observations from a re-analysis of the deposited data

Results flagged for a closer look

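For 6 of the 76 features the phenylephrine ratio pointed in opposite directions under the 2 siRNAs, with counting intervals on opposite sides of 1. This was 7.89% of the 76 and is no more than the share of all 12226 features with such intervals, 10.3%. The difference (log2 ratio in Chaer siRNA cells less the one in control siRNA cells) was 0.57 for the features ranked 14th and 17th, 0.42 for the feature ranked 28th, 0.43 for that ranked 33rd and 0.42 for that ranked 38th, all lower with phenylephrine under the control and higher under the Chaer siRNA. It was -0.18 for the feature ranked 35th, in the other direction. With TMM or median-ratio scaling 5 of the 6 were still opposite, and the feature ranked 35th was higher under both siRNAs. These differences rest on 1 library per group and were not tested.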

How the results depend on the processing

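The number of features that meet the rule ran from 62 to 100 over the scalings, filters and the pseudocount of 0.1, beside 76 as reported. It was 38 with a pseudocount of 5 (37 of them among the 76) and 309 with the 1.5-fold rule. All 76 met the rule with TMM, median-ratio and TPM scaling, and 62 did with the 20 most abundant features left out of the scaling. At least 2-fold higher without phenylephrine were 193 features with a pseudocount of 0.1 and 55 with 5, and 604 passed 1.5-fold; with phenylephrine the counts were 187, 53 and 547. The median log2 ratio of the 76 was 1.38 and 1.03 with pseudocounts of 0.1 and 5 without phenylephrine, and 1.48 and 1.11 with it. The median phenylephrine log2 ratio under the Chaer siRNA turned from -0.04 to 0.072 with TMM and 0.062 with median-ratio scaling. The cause was not tested. No paired analysis was possible because there is only 1 library per group. No library was left out, since a group would vanish.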
